A study of Mus musculus with 6 samples.

Results

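The transcriptome of the untreated parotid gland was described from 3 of the 6 samples of the series, those whose treatment label reads untreated. The mice were of the FVB strain, an inbred laboratory line, and were 28 days old. RNA was taken from parotid salivary gland tissue, and libraries were made from total RNA with a stranded kit. The protocol text on these 3 samples also names a 5 Gy radiation dose, which stands on every sample of the series, whereas their treatment label says untreated. The labels do not say whether each sample came from a separate mouse or from pooled glands, so the spread given here is between samples and may be partly technical. No comparison with the irradiated samples was made.

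The parotid gland makes the watery, protein-rich part of saliva. Most of its mass is serous acinar cells, which fold large amounts of a few proteins in the endoplasmic reticulum, store them in granules and release them when nerves signal through muscarinic and beta-adrenergic receptors. Ducts then change the salt content of the fluid, and myoepithelial cells squeeze the acini. Between these lie blood vessels, fibroblasts, fat, nerves and immune cells, and in the mouse small lymph nodes and neighbouring glands lie close by.

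Counts in genes totalled 12787135, 12722189 and 15036193 in untreated replicates 1, 2 and 3. A symbol was found in the annotation for 52489 of the 52636 genes in each table. Over the 12057 genes with a mean of at least 1 CPM (counts per 1000000 counts in genes of the same library), Spearman's rho between libraries lay from 0.971 to 0.972. Every pair of libraries differed by more than counting error: the chi-square over genes, divided by its degrees of freedom, was 13.8 for replicates 2 and 3, 27.1 for 1 and 2 and 34.5 for 1 and 3. The tissue label was checked against markers: all 11 acinar markers had counts in every library, while Muc19, a gel mucin of other salivary glands, had 0 counts and Smgc, a mucin-like protein of those glands, at most 1 count per library. The whole list of markers of other salivary and lacrimal glands was not absent: 13 of its 19 matched members reached 1 CPM, and it held 4.51% of counts on average, so the check does not separate the glands by that list.

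A handful of genes held most of the counts in genes. Among the 10 most abundant was CT010467.1, an annotated rRNA gene. The 10 most abundant genes took 60.3%, 62.8% and 61.8% of counts in replicates 1, 2 and 3 (61.6% ± 1.28, SD, n = 3). Between 4 and 6 genes made up the first 50% of a library, and 1674 to 1992 genes made up 90%. After division by summed exon length (TPM, the length-scaled counts brought to a sum of 1000000), fewer genes were needed: 6 genes made up 50% of TPM in each library, and 143 to 233 genes made up 90%.

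**Figure D1:**
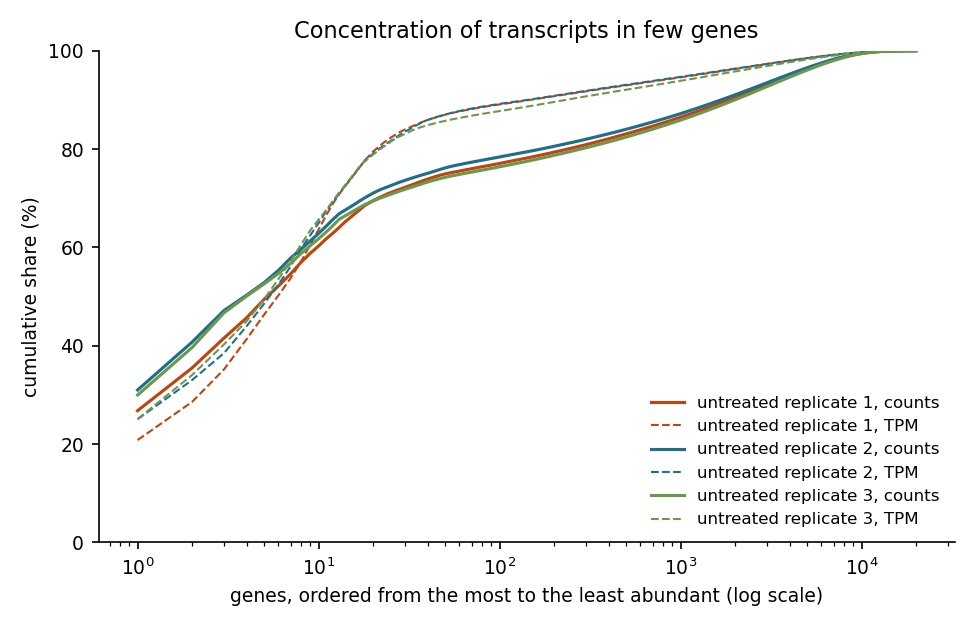
Cumulative share (%) of counts (solid lines) and of TPM (dashed lines) against the number of genes, ordered from the most abundant and drawn on a log scale, with 1 colour for each of the 3 untreated libraries. The first gene alone starts each count curve between 26.8% and 31.0%, and the TPM curves pass 80% within the first 30 genes.

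Secreted saliva proteins held most of the counts in genes. Of 272 listed genes in 5 classes of secreted proteins, 154 had at least 1 count in some library, and together they held 64.5%, 66.6% and 65.6% of counts (65.6% ± 1.02, SD, n = 3). By length-scaled counts the same classes held 71.1% of TPM, and with the rows that name no gene included they held 42.1% of all reads in the tables. The classes were listed by name, so genes with other names were missed. Adding 5 unlisted genes of the 30 most abundant whose proteins begin with a hydrophobic stretch (Gm5938, Gm1553, Gm14743, Ggh and Crisp1) gave 69.1% ± 0.844 (SD, n = 3), an addition made after the values were seen.

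The largest class was the proteins of the BPI fold, the lipocalins and the odorant-binding proteins, which carry lipids and small hydrophobic molecules (32.4% ± 1.41 of counts). Most of it was Bpifa2 (chr2:154008265-154016079, plus strand), the parotid secretory protein, a BPI-fold protein of saliva. It stood at 267983, 310002 and 299775 CPM, which is 208174, 250632 and 250903 TPM. It was the most abundant gene on both scales, lowest in replicate 1, and varied by a coefficient of variation (CV, SD over mean) of 7.49%. Of 76 members of the class, 57 had no count in any library, and 9 reached a mean of 1 CPM.

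The secreted enzymes held 19.1% ± 0.984 of counts. Amy1 (chr3:113555710-113606699, minus strand), salivary alpha-amylase, which cleaves starch, stood at 86845, 97434 and 96631 CPM. Exons of Rnpc3 covered 32.7% of its exon bases, and its rank was 2 by CPM and 6 by TPM. Chia1 (chr3:106113229-106132120, plus strand), an acidic chitinase, stood at 60730, 64098 and 70406 CPM. Both were lowest in replicate 1, and neither varied by more than a CV of 7.55%. Car6, the secreted carbonic anhydrase, stood at 14804, 14544 and 14019 CPM. Dnase1, a secreted endonuclease, stood at 11667, 11722 and 13566 CPM, Lpo, lactoperoxidase, at 2145, 1683 and 1853 CPM, and Klk1, a tissue kallikrein of duct cells, at 1611, 1749 and 1592 CPM.

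Smr, mucin-like and proline-rich proteins, which coat surfaces and bind minerals and tannins, held 7.61% ± 0.645 of counts. Smr3a (chr5:88002549-88008534, plus strand), a submaxillary gland androgen-regulated protein, stood at 27024, 31305 and 34020 CPM. Its short transcripts ranked it second per length, at 66001, 79572 and 89522 TPM, but 49.5% of its exon bases were shared with Gm28434. Mucl2 (chr15:103895855-103899312, minus strand), whose RefSeq synonym is Spt1, stood at 41184, 25026 and 21222 CPM. The same class held 2310057J18Rik, known to RefSeq as Leg1, at 14432, 15174 and 15992 CPM. Prpmp5, a proline-rich protein, stood at 332, 395 and 357 CPM, and the mucin Prol1 (Muc10) at 38.9, 34.4 and 39.97 CPM. Mucl2 was the one of these that stood highest in replicate 1 by a wide gap.

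Demilune proteins and gel mucins held 2.32% ± 0.101 of counts. Dcpp1, a demilune cell and parotid protein, stood at 11226, 13981 and 13192 CPM and its neighbour Dcpp2 at 1908, 2663 and 2300 CPM. Their longest transcripts were identical at 91.9% of 617 bases, so reads may be exchanged between them, and both were lowest in replicate 1. Pip, the prolactin-inducible protein, stood at 7935, 6803 and 6706 CPM. Of the gel-forming mucins, Muc6 stood at 1.72, 2.44 and 4.79 CPM.

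Secretoglobins, cystatins and other small secreted proteins held 4.23% ± 0.637 of counts and 10.2% of TPM. Cst10, a cystatin, which inhibits cysteine proteases, stood at 18300, 18511 and 20470 CPM. Scgb2b2 and Scgb1b2, subunits of secretoglobin dimers of the androgen-binding protein type whose genes overlap on opposite strands of chromosome 7, stood at 11639, 7066 and 6667 CPM and at 9433, 6412 and 5427 CPM. Both subunits were highest in replicate 1 and lowest in replicate 3.

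**Figure D2:**
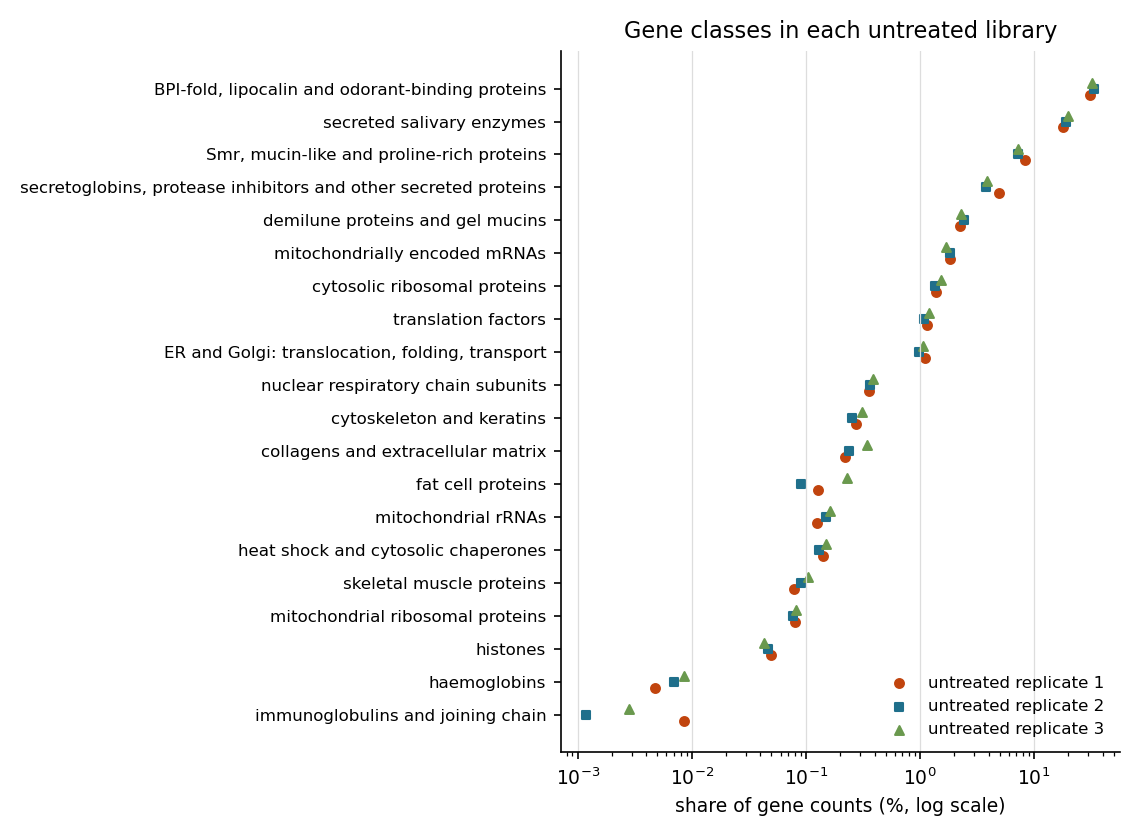
Share of gene counts (%, log scale) of each of the 20 gene classes in untreated replicates 1 (circles), 2 (squares) and 3 (triangles). The 5 secreted classes stand at the top, while fat cell proteins and immunoglobulins show the widest gaps between libraries.

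The abundant transcripts shared features that the ranking did not use. Of the 25 most abundant protein-coding genes, 23 (92%) encode a protein with a hydrophobic start, defined as 8 residues within residues 2 to 30 with a mean Kyte-Doolittle hydropathy of at least 2.2, as signal peptides have. The share was 33.3% for the next 75 genes, 23.3% for the 900 after those and 26.04% over all 21511 protein-coding genes examined. The leading proteins were short, with a median of 171 residues against 397 over all genes, and so were their summed exons, with a median of 1131 bases against 3550. Genes with 0 counts in all 3 libraries also had more hydrophobic starts than the average, at 37.3%, so this feature was not confined to the abundant genes.

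The same genes were examined for a TATA box, the promoter element bound by the TATA-binding protein near the start of many highly transcribed genes. The letters TATAAA were searched on the gene's strand alone, starting 20 to 40 bases before the RefSeq start site. They were found in 5 of the 23 top-25 genes with a RefSeq promoter (21.7%), in 2 of the 56 among the next 75 genes (3.57%), in 3.21% of those in the 900 after and in 3.02% of the 16419 protein-coding genes matched. Among genes with 0 counts in all 3 libraries the share was 5.98%, so the letters were not confined to abundant genes. Over all 32851 promoters of the RefSeq table (GRCm38.p6) the share was 1.99%. The windows of the 6 most abundant genes with an entry are shown, 50 bases before to 10 after the start, 5′ to 3′ on the gene's strand, with capitals marking TATAAA inside the searched positions.
Bpifa2, chr2:154008226-154008285, plus strand: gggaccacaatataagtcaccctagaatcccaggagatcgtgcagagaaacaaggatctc
Amy1, first start, chr3:113577741-113577800, minus strand: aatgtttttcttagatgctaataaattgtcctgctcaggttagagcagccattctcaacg
Amy1, second start, chr3:113574753-113574812, minus strand: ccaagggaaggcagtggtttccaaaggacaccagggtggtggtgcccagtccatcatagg
Chia1, chr3:106113332-106113391, plus strand: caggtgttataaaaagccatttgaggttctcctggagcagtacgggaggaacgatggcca
Smr3a, chr5:88002475-88002534, plus strand: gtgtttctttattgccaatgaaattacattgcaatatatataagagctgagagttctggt
Mucl2, chr15:103899303-103899362, minus strand: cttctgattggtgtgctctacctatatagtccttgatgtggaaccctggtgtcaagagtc
Obp1a, chrX:78091365-78091424, minus strand: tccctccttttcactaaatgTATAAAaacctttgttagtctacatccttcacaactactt
Only Obp1a of these 6 held the exact letters in the searched positions, 30 bases before its start. Chia1 held them 43 bases before its start, outside those positions. The absence of the exact letters in the others says nothing of other forms of the element.

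The machinery that makes and moves secreted proteins took a far smaller share of counts than the secreted proteins. Genes of protein translocation, folding and transport in the endoplasmic reticulum and Golgi held 1.05% ± 0.0675 of counts, and 103 of 107 reached a mean of 1 CPM. P4hb, a protein disulfide isomerase, stood at 1239, 1058 and 1051 CPM and Hspa5, the chaperone BiP, at 444, 377 and 466 CPM. Translation factors held 1.14% ± 0.0530, among them Eef1a1, which brings aminoacyl-tRNA to the ribosome, at 2657, 2386 and 2683 CPM. Pabpc1, the poly(A)-binding protein, stood at 1778, 1765 and 1809 CPM, a CV of 1.28% with library totals and 3.35% with TMM factors. Cytosolic ribosomal proteins held 1.42% ± 0.0842 with 86 of 92 genes at 1 CPM or more, and their sum was 1.11 times as high in the highest library as in the lowest.

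Mitochondrially encoded mRNAs held 1.83%, 1.82% and 1.68% of counts. mt-Co1, a subunit of cytochrome c oxidase, stood at 6018, 6414 and 5833 CPM, and mt-Cytb stood at 2972, 3442 and 3171 CPM. Nuclear genes of the respiratory chain held 0.370% ± 0.0126 of counts, with Atp5b, the catalytic subunit of the ATP synthase, at 417, 397 and 426 CPM. Outside the 10 most abundant genes, mitochondrial mRNAs made up 4.63% of the remaining counts and ribosomal proteins 3.70%.

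Transcription factors of acinar cells had a spread between libraries near that of all genes at 10 CPM or more. Xbp1, the factor of the unfolded protein response, stood at 443, 377 and 382 CPM, and Bhlha15 (Mist1), which drives the acinar secretory programme, at 388, 343 and 365 CPM. Etv1 stood at 280, 288 and 301 CPM and Ehf at 195, 178 and 158 CPM. Of the 16 factors listed, 14 reached a mean of 1 CPM with a median CV of 8.67%, and Gata6 and Nr5a2 were below it, the latter at 0.156, 0.0786 and 0.200 CPM. Over all genes the median CV was 14.1% at 1 CPM or more and 9.61% at 10 CPM or more. Of the 16 factors, 13 reached 10 CPM. The sums of this list were 1833, 1698 and 1767 CPM.

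Of 24 genes of fluid and ion secretion 23 had counts, and their sums were 2233, 2255 and 2333 CPM. The sodium-potassium-chloride cotransporter Slc12a2, which loads chloride into the cell, stood at 498, 482 and 517 CPM. The chloride channel Ano1 stood at 131, 130 and 118 CPM, and the water channel Aqp5 at 230, 208 and 227 CPM. The potassium channel Kcnn4 stood at 297, 289 and 362 CPM, highest in replicate 3. Scnn1a, a subunit of the epithelial sodium channel of ducts, stood at 16.3, 17.5 and 19.9 CPM, and the bicarbonate transporter Slc26a6 had 0 counts in all 3 libraries.

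Receptors and calcium release genes summed to 711, 700 and 729 CPM, and all 34 had counts. The muscarinic receptor Chrm3 stood at 23.2, 24.996 and 22.01 CPM and the beta-adrenergic receptor Adrb1 at 19.2, 16.98 and 21.3 CPM. Atp2a2, the pump that refills the calcium store, stood at 145, 136 and 149 CPM. Granule exocytosis genes summed to 599, 587 and 591 CPM, among them Rab3d, a small GTPase of secretory granules, at 131, 119 and 114 CPM. The order of libraries in these lists changed with the scaling: with TMM or DESeq2 factors the highest sum moved to replicate 2 in both.

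Transcripts outside protein-coding genes held few counts apart from ribosomal RNA. Protein-coding genes took 95.4% ± 0.344 of counts. Annotated rRNA genes took 2.45% ± 0.0696, nearly all in CT010467.1 on chromosome 17, at 23715, 24867 and 24968 CPM. Other genes, among them Gm42418 on the opposite strand, covered 73.9% of its exon bases. BC037156 (chr5:87908779-87914171), annotated as a long noncoding RNA here but as protein-coding in RefSeq under the synonym FDC-SP, stood at 3514, 4251 and 3668 CPM. Gm14135, a long noncoding RNA on chromosome 2, stood at 4074, 2641 and 2332 CPM, highest in replicate 1. The nuclear RNA Malat1 stood at 1083, 1281 and 1474 CPM. Gm23935, annotated as a microRNA gene of 57 bases, had a mean of 947 CPM and, divided by that length, ranked ninth by TPM.

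Markers of the other cell types were present at widely different levels. A lower level of a type's markers in bulk tissue cannot be told apart from less RNA per cell. Fibroblast markers summed to 1566, 1627 and 2367 CPM, among them Col3a1, a fibrillar collagen, at 433, 470 and 787 CPM. Duct markers summed to 2000, 2153 and 2060 CPM, but Klk1 made up most of that sum. Krt18 stood at 201, 217 and 233 CPM, while the ionocyte factor Foxi1 stood at 2.19, 1.41 and 2.06 CPM and Slc26a9 had 0 counts. Basal and myoepithelial markers summed to 92.9, 93.6 and 117 CPM, with Acta2, smooth muscle actin, at 31.0, 27.5 and 39.8 CPM. Endothelial markers summed to 132, 146 and 142 CPM.

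Skeletal muscle RNA was found in every library. Muscle markers summed to 606, 694 and 805 CPM, and all 12 had counts. Myh4, a fast myosin heavy chain, stood at 168, 182 and 224 CPM and Acta1, skeletal actin, at 140, 163 and 175 CPM. Nerve markers summed to 103, 133 and 127 CPM, of which Sox10, which is also an acinar factor, stood at 51.8, 59.0 and 72.8 CPM. Macrophage and dendritic markers summed to 322, 280 and 360 CPM. In the mast cell list Kit stood at 33.6, 35.8 and 31.9 CPM, whereas the mast cell protease Mcpt4 stood at 3.68, 3.69 and 3.99 CPM. Cycling genes summed to 14.6, 17.2 and 22.3 CPM.

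Outside the 10 most abundant genes 5082433, 4727203 and 5765807 counts were left for all others. A single count was worth 0.0782, 0.0786 and 0.0665 CPM, and the limit that a count of 0 allows, set at 3 counts, was 0.235, 0.236 and 0.200 CPM, for counting error only. Genes with at least 1 count numbered 19460, 19258 and 20219, and 16593 had a count in all 3 libraries. Another 3938 genes had counts in exactly 1 library. In all 3 libraries 29495 genes were at 0, among them 6086 of the 21896 protein-coding genes.

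Thinned by calculation to the smallest total, 12722189 counts, the libraries were expected to show 19445, 19258 and 19735 genes, so replicate 3 stayed highest. At 1000000 counts 13262 ± 219 genes were expected and at 10000000 counts 18802 ± 244 (SD, n = 3), so the number of genes had not levelled off. In the abundance scale 45 genes lay at 1000 CPM or more, 435 at 100 or more, 5606 at 10 or more and 12057 at 1 or more.

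Lists of tissues that were not sampled stood near the floor. Of 12 pancreas genes 9 had no count and the list held 4 counts in total, although amylase and a lipase-like gene were abundant in the gland. Of 1106 olfactory receptor genes 1057 had no count, and of 294 vomeronasal receptor genes 287. Heart genes held 10 counts in total, brain genes 50, testis genes 47 and kidney and intestine genes 97, with Vil1 of the last at a mean of 2.19 CPM. The liver list stood furthest above the floor, since Cyp2e1, a cytochrome P450 that other tissues also make, stood at 14.5, 6.92 and 27.9 CPM. Red cell markers summed to 48.6, 71.7 and 87.8 CPM.

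The spread between libraries depended on abundance. Over the 5606 genes at 10 CPM or more the median CV was 9.61%, against 18.5% over all genes with a count in each library, and 2931 genes (52.3%) lay under 10%. The CV fell with abundance from a median of 54.4% at 0.1 to 1 CPM, where counting alone gives 50.7%, to 20.4% at 1 to 10 CPM, 9.80% at 10 to 100 CPM and 7.95% at 100 to 1000 CPM, where counting gives 2.18%. At 1000 CPM and more it was 10.4%, against 0.497% from counting. The counting values are expected CVs, whereas the others are medians of CVs from 3 libraries, so they are not fully alike. At 0.1 to 1 CPM the root mean excess over counting was a CV of 44.4%, so counting was not the whole spread there. The common biological CV estimated by edgeR over 11692 genes was 16.2%. Lamp1, a lysosomal membrane protein, had the lowest CV at 100 CPM or more, at 218, 218 and 218 CPM, below its counting CV of 1.85%, but with TMM factors its CV was 4.66%.

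**Figure D3:**
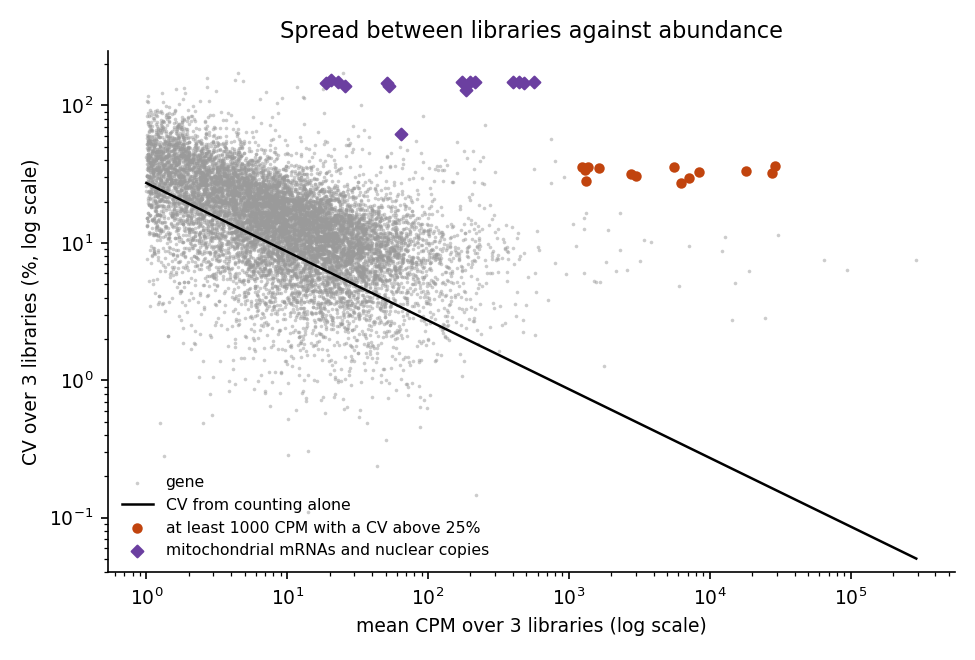
CV over the 3 libraries (%, log scale) against mean CPM (log scale) for genes at 1 CPM or more. Grey points are genes, the line is the CV from counting alone, orange points are the 14 genes at 1000 CPM or more with a CV above 25%, and purple diamonds are the uneven mitochondrial mRNAs and the nuclear copies, which lie far above the line.

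The 45 genes at 1000 CPM or more fell into a steady and a variable set. In 31 of them the CV was at most 16.5%, with a median of 7.49%. The other 14 had CVs from 27.3% to 36.4%, and all 14 were highest in replicate 1. They took 15.8%, 10.2% and 8.51% of counts in replicates 1, 2 and 3. This set was picked for its spread, so these values describe it.

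Of the variable set, 10 genes belonged to 3 families. The 4 odorant-binding protein genes lie together on the X chromosome between 78085505 and 78245921. Obp1a, whose mean per length was 59000 TPM, stood at 37662, 25481 and 20117 CPM, and Gm5938, whose RefSeq synonym is OBP6, at 24660, 16531 and 12939 CPM. Gm14743 stood at 7603, 5374 and 3683 CPM and Obp1b at 3806, 2303 and 2238 CPM. The last 2 have longest transcripts that are 99.1% identical over 759 bases, so their separate levels are uncertain, whereas Obp1a and Gm5938 share 84.9%. All 4 were highest in replicate 1 with each of the 3 scalings, which stood at 1.65 to 1.68 times the mean of the others.

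Secretoglobins and the exocrine-gland secreted peptides, a family of pheromone-like peptides on chromosome 17, did likewise. Of 13 secretoglobins at 1 CPM or more, 10 were highest in replicate 1 (9 with TMM or DESeq2 factors) and 9 exceeded both other libraries there by at least 1.3 times. Of 11 Esp genes, 8 were highest in replicate 1 and 7 exceeded both by that ratio; Esp18 stood at 1918, 1181 and 1004 CPM, and Esp15 was an exception at 35.2, 6.45 and 46.8 CPM. Over all genes at 1 CPM or more, 32.1% were highest in replicate 1 and 5.59% exceeded both other libraries there by that ratio. With TMM or DESeq2 factors the same counts by ratio, 9 and 7, were found. These families were chosen after the values were seen.

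Other members of the set were not of these families. Mucl2 was described above. Gm1553, whose RefSeq synonym is Lcrn, stood at 8267, 5532 and 5098 CPM, and Pnliprp1, a pancreatic lipase-related protein, at 1726, 1140 and 856 CPM. Just below 1000 CPM the same order was seen for Sval2, a seminal vesicle antigen-like protein, at 1227, 820 and 703 CPM and for Phyh, a peroxisomal enzyme of phytanic acid breakdown, at 1147, 665 and 562 CPM. Lcn11, a lipocalin, stood at 320, 155 and 148 CPM and Mup4, a major urinary protein, at 279, 179 and 176 CPM. By contrast Bpifa2, Amy1, Chia1, Smr3a, Cst10 and Dcpp1 were all lowest in replicate 1. Car6, Lpo and Pip, also saliva proteins, were highest in replicate 1 with library totals. For Car6 the gap was narrow (CV 2.77%) and did not hold with TMM factors. Of the 11 acinar markers 5 were highest in replicate 1 and 4 were lowest there, with library totals. Obp1a, Scgb2b24, Lcn11 and Mup4 stood on the list of markers of other salivary and lacrimal glands, as did Dcpp1 and Dcpp2, which were lowest in replicate 1. Of the 13 members at 1 CPM or more 6 were highest in replicate 1 and 5 were lowest there. Of its 19 matched members 17 had counts, and they summed to 53897, 43806 and 37555 CPM, while other markers of the list (Muc19, Smgc, Bpifb2, Tff2 and Ren1) had at most 3 counts in any library. The part of neighbouring gland tissue in the difference was not tested.

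**Figure D4:**
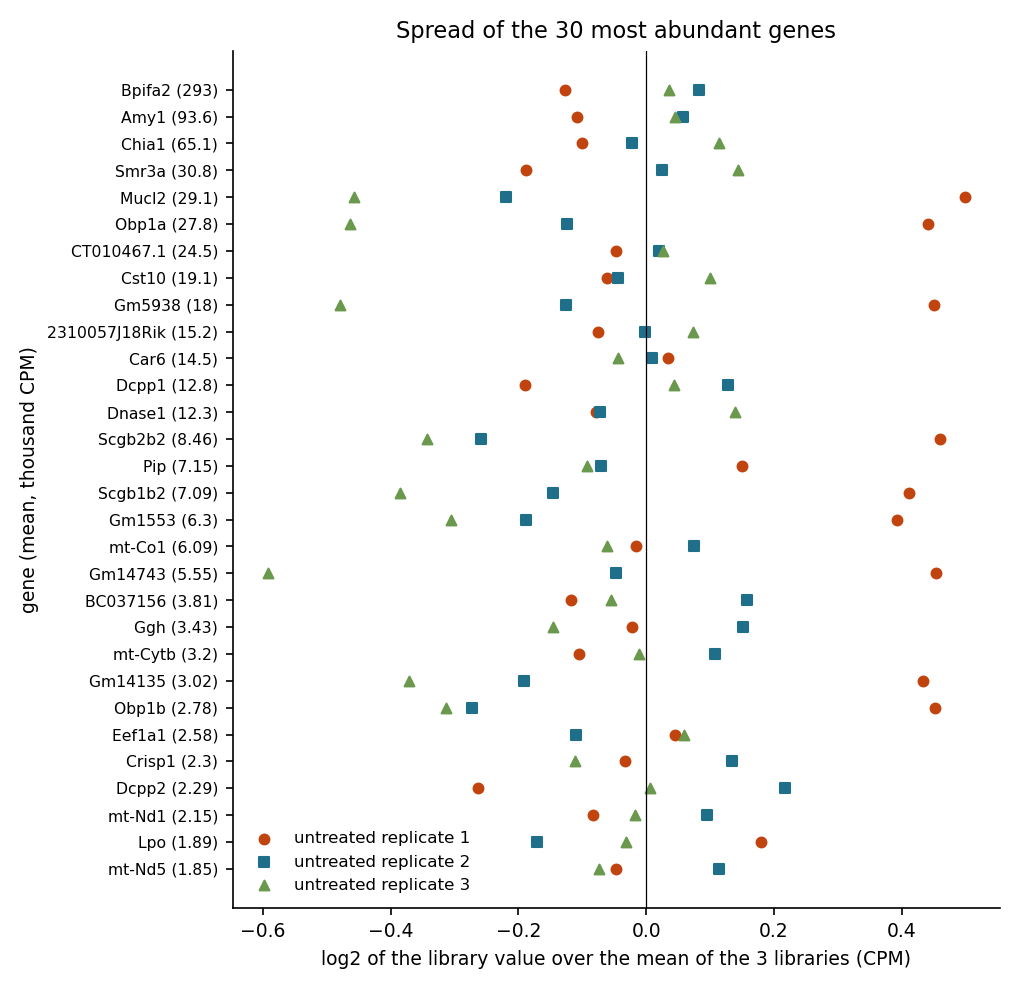
Log2 of each library's CPM over the mean of the 3 libraries for the 30 most abundant genes, ordered by mean CPM (in units of 1000 CPM beside each name), with untreated replicate 1 as circles, 2 as squares and 3 as triangles. Genes such as Mucl2, Obp1a and Scgb2b2 stand apart with replicate 1 on the right, while Bpifa2, Amy1 and Car6 stay close to 0.

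Mitochondrial mRNAs and their nuclear copies were among the genes with the widest spread. Of the 5606 genes at 10 CPM or more, 45 (0.803%) had a CV above 50%. Among these were 17 of the 106 pseudogenes and 6 of the 13 mitochondrial mRNAs at that level. mt-Co2 stood at 464, 52.9 and 42.8 CPM, mt-Co3 at 541, 30.1 and 28.8 CPM and mt-Atp6 at 470, 28.8 and 23.1 CPM; mt-Atp8, mt-Nd3 and mt-Nd4l were likewise high only in replicate 1. A block of 7 pseudogenes on chromosome 1 between 24611535 and 24616197 went another way. Gm10925, identical to mt-Atp6 over all 678 bases, stood at 21.0, 1527 and 149 CPM, and Gm28437, identical to mt-Co3 over 783 bases, at 17.4, 1286 and 134 CPM.

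The other mitochondrial mRNAs were even between libraries, among them mt-Co1, mt-Cytb and mt-Nd1. The 6 uneven mRNAs took 0.165%, 0.0120% and 0.0104% of counts, and the 7 copies took 0.00776%, 0.595% and 0.0595%. Added to the mitochondrial mRNAs the copies brought their share to 1.84%, 2.42% and 1.74%, and without the 6 uneven mRNAs the share was 1.66%, 1.81% and 1.67%. Reads from identical stretches align to more than 1 place, and such reads, 13.6%, 15.6% and 15.98% of the tables, stood in a row without a gene. How they were assigned in these libraries was not tested.

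Fat and milk protein genes were highest in replicate 3. All 10 fat cell markers were highest there, with sums of 590, 462 and 984 CPM, and the sum stayed highest there with TMM and DESeq2 factors. With library totals 48.1% of all genes at 1 CPM or more were highest in replicate 3. The part of adjoining fat in this was not tested. Scd1, a desaturase of fatty acid synthesis, stood at 622, 396 and 1211 CPM, Fasn, fatty acid synthase, at 160, 108 and 274 CPM, and Adipoq, the fat cell hormone adiponectin, at 24.2, 16.04 and 38.1 CPM. Of 14 lipid synthesis and storage genes chosen after the values were seen, 12 exceeded both other libraries in replicate 3 by at least 1.3 times, with library totals and with either alternative scaling, against 10.6% of all genes at 1 CPM or more with library totals. All 4 caseins at 1 CPM or more, also an added family, showed this too: Csn2 stood at 4.69, 4.01 and 45.02 CPM and Csn1s1 at 6.02, 3.14 and 30.1 CPM. Collagen and matrix genes summed to 2205, 2391 and 3468 CPM, with Postn, a matrix protein, at 61.2, 50.6 and 134 CPM. Krt19, a keratin of ducts and other epithelia, stood at 6.57, 7.55 and 15.9 CPM.

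T cell markers were nearly missing from replicate 2. The 16 T cell markers summed to 32.6, 3.46 and 30.1 CPM, from 417, 44 and 453 counts, with exact Poisson 95% intervals of 29.6 to 35.9, 2.51 to 4.64 and 27.4 to 33.0 CPM for counting error only. Trbc2, a constant part of the T cell receptor, stood at 3.28, 0.0786 and 2.86 CPM. B and plasma cell markers summed to 181, 110 and 126 CPM. Derl3, with a mean of 96.0 CPM and a CV of 3.65%, made up most of each of these sums. Of the 13 markers at 1 CPM or more 11 were lowest in replicate 2. Over all genes at 1 CPM or more 47.5% were lowest there with library totals and 33.7% with TMM factors. Cd79a, a part of the B cell receptor, had 51, 0 and 22 counts. Glycam1, a mucin-like protein made by vessels of lymph nodes, stood at 31.7, 0.472 and 22.4 CPM. It was 1 of 5 genes at 1 CPM or more in an added list of lymph node stroma and vessels. Of these 5 genes 4 were lowest in replicate 2 and 1 was lowest in replicate 1. They summed to 39.6, 2.67 and 30.9 CPM, and Glycam1 made up most of the sum in replicates 1 and 3. Replicate 2 was the lowest of the 3 for Trbc2, Cd79a and Glycam1, and the T cell sum stayed lowest there with TMM and DESeq2 factors. The part of lymph node tissue in this was not tested.

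Antibody genes were also lower in replicate 2 than in replicate 1. Immunoglobulin and joining chain genes summed to 86.1, 11.9 and 28.1 CPM. Igha, the heavy chain of secretory IgA, stood at 17.4, 1.26 and 2.66 CPM and Jchain, which joins IgA into dimers, at 6.88, 0.865 and 0.333 CPM, so both were highest in replicate 1, and Jchain was lowest in replicate 3. Ighm stood at 16.5, 6.05 and 12.3 CPM. Derl3, an endoplasmic reticulum protein in the plasma cell list, stood at 96.8, 99.04 and 92.2 CPM. The other immune list, macrophages and dendritic cells, was 1.28 times as high in the highest library as in the lowest.

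**Figure D5:**
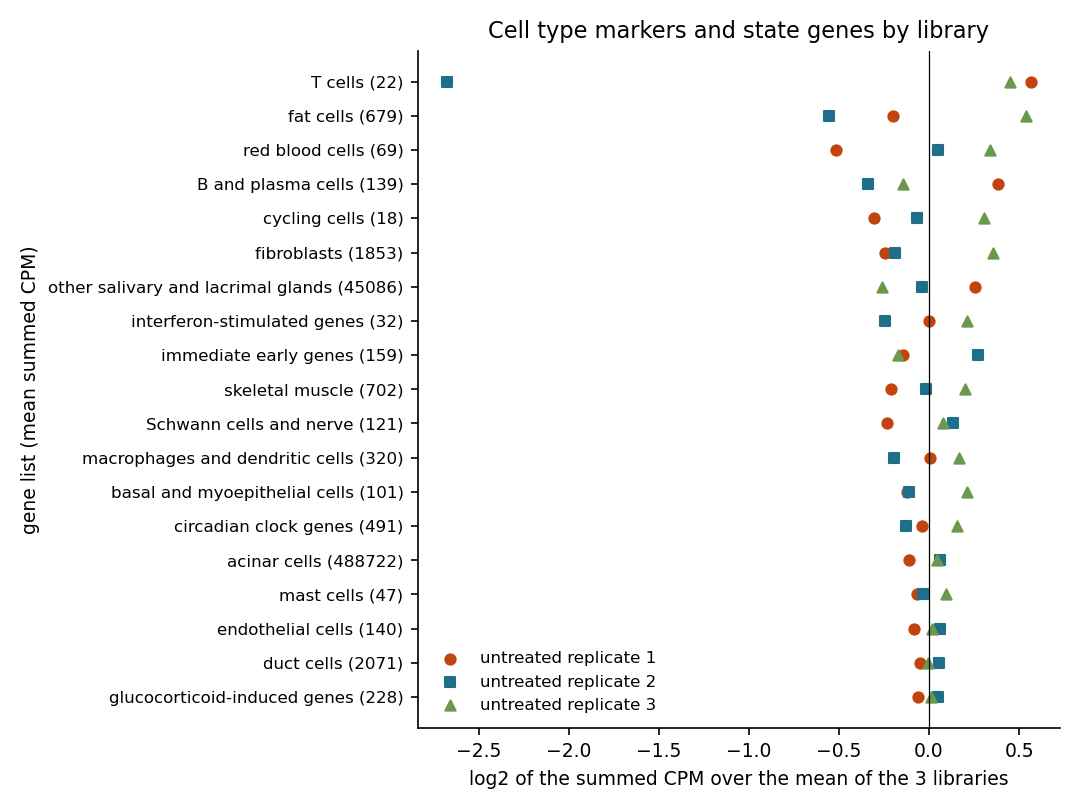
Log2 of the summed CPM of each marker or state list over its mean of the 3 libraries, with the mean summed CPM beside each name, for untreated replicates 1 (circles), 2 (squares) and 3 (triangles). T cell markers in replicate 2 lie far to the left, and fat markers spread from replicate 2 to replicate 3. The sums of acinar, endothelial and duct markers lie close to 0. Klk1 made up most of the duct sum, so that sum does not show that each duct marker was even.

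The lists of state genes differed less between libraries than the T cell, fat cell and immunoglobulin lists, but not less than every list. The highest sum over the lowest was 1.36 for immediate early, 1.37 for interferon-stimulated, 1.22 for clock and 1.08 for glucocorticoid-induced genes. For acinar, duct and endothelial markers it was 1.13, 1.08 and 1.10, where the duct value mostly reflects Klk1. Immediate early genes, which rise within minutes of stress or stimulation, summed to 145, 193 and 141 CPM, and 8 of the 13 members at 1 CPM or more were highest in replicate 2, against 19.8% of all such genes with library totals and 32.1% with TMM factors. The sum stayed highest there with TMM and DESeq2 factors. Dusp1, a phosphatase of that response, stood at 7.12, 14.1 and 3.46 CPM and Jun at 18.8, 30.9 and 16.16 CPM. Clock genes summed to 478, 449 and 546 CPM, with Dbp, an output gene of the clock, at 34.4, 21.9 and 38.8 CPM. Interferon-stimulated genes were low in all libraries, at 32.2, 27.2 and 37.4 CPM in sum, and glucocorticoid-induced genes summed to 219, 236 and 230 CPM.

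A few single genes stood apart from any list. Slc22a15, a solute transporter, stood at 42.5, 361 and 362 CPM, low in replicate 1 alone. Gm8226, a processed pseudogene, had 0, 0 and 1133 counts. Rpl7a-ps11, a ribosomal protein pseudogene, stood at 136, 134 and 3.52 CPM, low in replicate 3 alone. Cyp2a5, a cytochrome P450, stood at 258, 120 and 100.7 CPM.

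Library totals set the order of libraries for many small differences. With library totals 48.9% of genes at 10 CPM or more were highest in replicate 3 and 15.8% in replicate 2. With TMM factors the shares were 32.4% and 32.7%, while the median gene moved by at most 0.07 on the log2 scale.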

How the data were processed

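RNA was sequenced from 3 untreated parotid gland samples. The authors deposited raw read counts per Ensembl gene, 1 table per sample; bcl2fastq, HISAT2, HTSeq and the build mm10 are named per the submitters' processing notes. Versions, annotation release and the strand setting of counting are not given in the sources used here, so antisense and overlapping genes, and members of near-identical families, are uncertain. Reads in rows that name no gene (no feature, ambiguous, unaligned and the like) made up 33.9% to 37.3% of each table and stayed out of totals.

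CPM, TPM, shares, CVs and expected genes after thinning (hypergeometric expectation) were computed in Python 3.11.15. TMM factors and dispersion came from edgeR 4.0.16, and size factors from DESeq2 1.42.0, both for scaling only. No test between groups was made. Symbols, exon lengths and coding exons, translated for protein features, came from GENCODE M21 (GRCm38, the same build as mm10), and promoters and synonyms from RefSeq. The calculations of spread and thinning were tested on simulated data.

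Samples were grouped by the treatment label. Named are the 30 genes highest by mean CPM, the 15 highest by TPM, the 10 highest outside protein-coding genes, up to 4 leading and 4 most variable members of each of 51 lists with markers at 0, and the 12 most and 8 least variable genes; other genes, such as Phyh, Cyp2a5, Dbp, Slc22a15, Scnn1a and Postn, were named after their values were seen. Members and lists were chosen with earlier results of these data known. Alternatives were other scalings, filters, length scaling and leaving out each replicate. Some genes are not reported here.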

Additional observations from a re-analysis of the deposited data

How the results depend on the processing

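The share of counts in saliva proteins, 65.6%, was 42.1% of all rows of the tables, 71.1% of TPM and 69.1% with the 5 unlisted genes added. The share of the 10 most abundant genes was 64.7% by TPM, and 175 genes held 90% of TPM in place of 1835 of counts. The median CV rose from 9.61% to 18.5% over all genes with a count in each library. Mitochondrial mRNAs and ribosomal proteins took 4.63% and 3.70% of the counts outside the 10 most abundant genes, and mitochondrial mRNAs with the 7 copies added took 2.00%. Leaving out 1 replicate kept the saliva share between 65.1% and 66.1%. The median CV was then between 7.62% and 8.39%, but CVs from 1 library fewer are not directly comparable with 9.61%. The additions of genes and copies, and the leaving out of replicates for the mitochondrial and ribosomal shares, were chosen after seeing the data. No test between groups was made, and so no paired analysis either. With 3 libraries, differences among them have no test here, and genes below the worth of 3 counts, 0.200 to 0.236 CPM, cannot be called absent.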
